A study of Mus musculus with 4 samples.

Results

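Transcripts of 10 genes of cytotoxic T cells and natural killer (NK) cells were followed in mucosa of the mouse colon (strain C57BL/6) at 90 days after birth (P90) against 30 days after birth (P30). The genes are Gzma, Gzmb, Ccl5, Nkg7, Cd8a, Cd8b1, Cd3e, Cd3g, Cd3d and Klrd1, and their probes were found by matching the accession of each gene probe to RefSeq. Of 41174 distinct gene probes, 12 matched 9 of the 10 genes, all 12 passed the filter on dim probes, and Cd8b1 had no matched probe. Each of 4 two-colour arrays, lettered a, b, e and k as in the labels, set 1 P90 RNA against 1 P30 RNA, and the labels call these comparisons independent. P90 RNA carried the dye Cy5 on array e and Cy3 on the other 3 arrays. The mucosa was scraped off and its total RNA used whole, so the values are averages over epithelium, immune cells and stroma, and fewer cells of a type cannot be told apart from less RNA per cell. The labels give neither sex nor treatment, and do not say whether an animal was used more than once, so p-values cover only the spread over these 4 pairs, which may in part be technical.

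Cytotoxic lymphocytes kill infected or altered cells by releasing granules that hold perforin and granzymes. In the gut they lie largely between epithelial cells as intraepithelial lymphocytes, many of which carry CD8 and a T cell receptor, whose signal passes through the CD3 chains. NK cells share the granule proteins and the receptor chain encoded by Klrd1 but lack a T cell receptor.

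The promoters of Gzma, Gzmb, Cd8a, Nkg7 and Cd3g are shown because, of the 7 genes with a sequence at hand, these 5 had the largest SD of log2 P90/P30 between arrays. Each run holds the 250 bases before the gene's start from RefSeq (GRCm38.p6), 5′ to 3′ on the strand of the gene. Capitals mark matches, on either strand, to 7 short motifs. The letters TGTGGT stood for RUNX factors, which act in CD8 T cells. The letters GGAAGT stood for ETS factors of lymphocytes. The letters AGGTGT stood for T-box factors such as those encoded by Tbx21 and Eomes. The letters CAGNTG stood for the E-box of E proteins. The letters TGANTCA stood for AP-1, which acts after T cell receptor signals. The letters AGATAA stood for the factors of the Gata family. The letters TATAAA stood for the core promoter box of that name.
Gzma (chr13:113100982-113101231, minus strand): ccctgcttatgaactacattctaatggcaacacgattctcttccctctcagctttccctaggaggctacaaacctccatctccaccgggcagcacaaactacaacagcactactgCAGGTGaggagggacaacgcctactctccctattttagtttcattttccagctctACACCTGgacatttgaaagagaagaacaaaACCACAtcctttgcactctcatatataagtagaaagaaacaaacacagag
Gzmb (chr14:56262335-56262584, minus strand): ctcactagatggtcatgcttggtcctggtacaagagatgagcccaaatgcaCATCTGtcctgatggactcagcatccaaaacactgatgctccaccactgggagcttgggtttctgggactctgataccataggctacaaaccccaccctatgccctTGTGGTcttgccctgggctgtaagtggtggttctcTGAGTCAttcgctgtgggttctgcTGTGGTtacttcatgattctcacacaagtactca
Cd8a (chr6:71373177-71373426, plus strand): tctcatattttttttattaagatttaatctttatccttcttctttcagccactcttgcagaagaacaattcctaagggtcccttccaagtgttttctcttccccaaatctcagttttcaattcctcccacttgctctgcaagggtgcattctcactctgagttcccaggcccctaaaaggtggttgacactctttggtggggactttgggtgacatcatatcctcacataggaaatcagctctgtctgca
Nkg7 (chr7:43436888-43437137, plus strand): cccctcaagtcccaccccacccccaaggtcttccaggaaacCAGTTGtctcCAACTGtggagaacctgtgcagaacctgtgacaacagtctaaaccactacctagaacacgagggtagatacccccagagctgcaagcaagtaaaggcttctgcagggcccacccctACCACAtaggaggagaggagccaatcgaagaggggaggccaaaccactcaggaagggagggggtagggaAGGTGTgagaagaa
Cd3g (chr9:44980432-44980681, minus strand): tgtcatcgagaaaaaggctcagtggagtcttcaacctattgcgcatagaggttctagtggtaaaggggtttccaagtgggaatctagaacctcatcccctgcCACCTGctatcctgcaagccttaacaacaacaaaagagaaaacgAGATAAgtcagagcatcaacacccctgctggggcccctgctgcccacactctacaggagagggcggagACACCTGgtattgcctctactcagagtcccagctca

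Sequences were at hand for 7 of the genes (all but Ccl5, Cd8b1 and Klrd1). The T-box letters stood in 5 of these 7 promoters, against 11.8% of 32851 mouse promoters of the same length, and the RUNX letters in 3 of 7, against 14% of all. The E-box letters stood in 5 of 7, against 44.8% of all, the ETS letters in 2, against 19.7%, and AP-1 and Gata letters in 1 each, against 6.75% and 9.99%. In Gzma the T-box match overlaps an E-box match, as it does in Cd3g. The core promoter letters matched none of the 7, against 12.4% of all, and the Cd8a promoter held no match to any of the 7 motifs. Such matches describe these letters in these windows and say nothing of what binds there.

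All 9 measured genes had a mean log2 P90/P30 above 0, with a median of 0.38. Of all 20822 genes and transcripts tested, 45.6% had a mean above 0, and the median of all was -0.020. The 9 genes were chosen with earlier results of these data known and were measured on the same arrays, so this contrast tests nothing. With median centring in place of an intensity-dependent correction, Cd3e, Cd3d and Klrd1 lay below 0. No single member passed the limma test after Benjamini-Hochberg adjustment over all genes, and neither did any other gene (0% of 20822 called, the lowest adjusted p being 0.616). At an unadjusted p below 0.05 limma gave 1645 genes (7.9%), 539 of them higher at P90 (2.59%) and 1106 lower (5.31%), and among the members Ccl5 alone. For 8 of the 9 genes the SD between arrays exceeded the mean, Ccl5 being the exception.

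**Figure D1:**
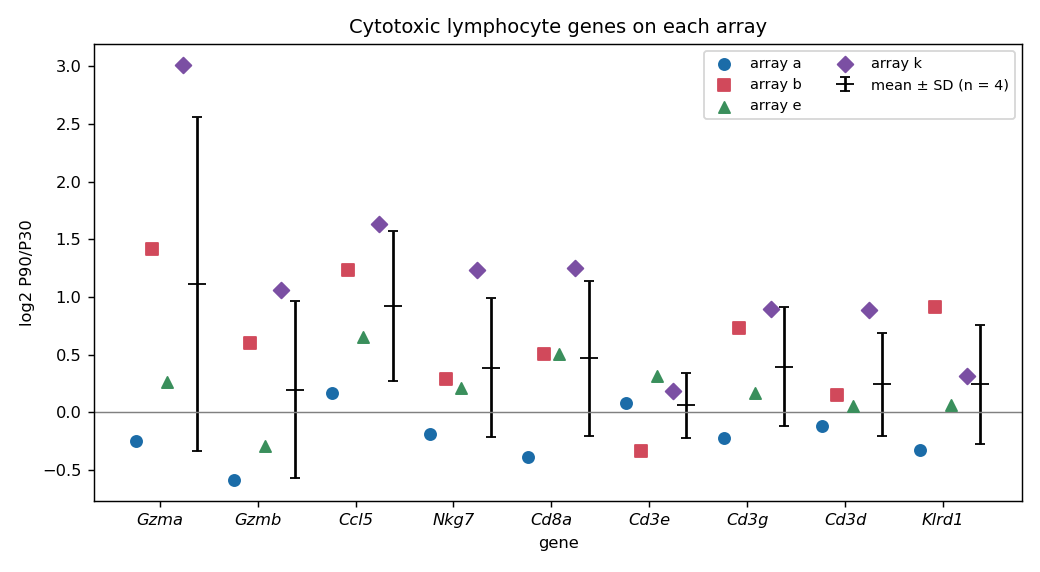
Log2 P90/P30 (y axis) of the 9 measured genes (x axis) on arrays a, b, e and k (coloured points), with the mean and SD of the 4 arrays in black. Ccl5 lay above 0 on all 4 arrays, 7 of the 9 genes were highest on array k and lowest on array a, and with median centring the means of Cd3e, Cd3d and Klrd1 lay below 0.

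The arrays were not alike. On array a 2 of the 9 genes lay above 0, with a median of -0.22. On array b 8 lay above 0 (median 0.60), on array e 8 (median 0.21) and on array k all 9 (median 1.06), while between 46.0% and 49.5% of all genes lay above 0 on each array. Array k was the highest and array a the lowest for 7 of the 9 genes, an order found for 5.56% of all genes, and a sign below 0 on a but above 0 on b, e and k was found for 6 of 9, against 2.74% of all. Without regard to array e it was found for 7 of 9, against 8.14% of all, and 8 of 9 lay above 0 on at least 3 arrays, against 30.8% of all. These patterns were taken from the values of the 9 genes themselves, so their larger shares among the 9 test nothing. Across genes, which are not independent replicates, array b correlated negatively with array a over all gene probes (Pearson r = -0.303), although the labels give both the same dyes. It also ran against arrays e (r = -0.27) and k (r = -0.17), while a, e and k correlated positively with one another (r = 0.58 for a and e, 0.43 for a and k, 0.30 for e and k), so b stood apart. Directions follow the labelled dyes here, and each array holds its own pair of RNAs. Turning the sign of array b would put Gzmb and Klrd1 below 0 and lower the median of the 9 genes to 0.22.

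Ccl5 encodes a chemokine (RANTES) that activated CD8 T cells and NK cells store and release to draw in other leukocytes. Its log2 P90/P30 was 0.16 (array a), 1.23 (b), 0.65 (e) and 1.63 (k). All 4 values were above 0, a direction shared by 6.15% of all genes. The mean was 0.92 ± 0.65 (SD, n = 4), which is 1.89-fold, with an unadjusted limma p of 0.0132 and an adjusted p of 0.616. Only 0.456% of all genes had a higher mean. The normalised log2 signals in P90 mucosa were 9.37, 10.79, 11.20 and 12.30 on arrays a, b, e and k, against 9.21, 9.55, 10.55 and 10.66 in P30 mucosa. The ages overlapped, since the P90 signal on array a lay below 3 of the 4 P30 signals.

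Gzma encodes granzyme A, a tryptase of the lytic granule. Its log2 P90/P30 was -0.25 (array a), 1.41 (b), 0.26 (e) and 3.01 (k), the widest span of the 9 genes. On array k alone this is an 8.07-fold higher signal at P90, on array a a 0.841-fold one. The mean of 1.11 ± 1.45 (SD, n = 4; limma adjusted p = 0.627) rests on array k, and without it was 0.47. In normalised log2 signal, P90 mucosa had 7.09, 8.42, 7.99 and 9.59, against 7.34, 7.01, 7.73 and 6.58 in P30 mucosa. Array k thus held both the highest P90 and the lowest P30 signal of Gzma.

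Gzmb encodes granzyme B, the granule protease that cleaves caspases and their substrates. Its log2 P90/P30 was -0.59 (array a), 0.60 (b), -0.29 (e) and 1.06 (k), with a mean of 0.19 ± 0.77 (SD, n = 4; limma adjusted p = 0.912). Without array k the mean was -0.094. Its normalised log2 signals were 6.93, 7.89, 7.24 and 7.77 in P90 mucosa, against 7.52, 7.29, 7.53 and 6.71 in P30 mucosa. The lowest P30 signal was again that of array k. Both granzymes thus had the same order of arrays with Gzma higher than Gzmb on each, a difference not tested because each gene was measured by 1 probe on the same 4 pairs.

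Nkg7 encodes a membrane protein of cytotoxic granules that takes part in their release. The brighter of its 2 probes read -0.19 (array a), 0.29 (b), 0.21 (e) and 1.23 (k), with a mean of 0.38 ± 0.60 (SD, n = 4; limma adjusted p = 0.702). The other probe read -0.33, -0.043, 0.38 and 0.74, with a mean of 0.19. The probes differed in sign on array b, and both were lowest on a and highest on k. The brighter probe had normalised log2 signals of 7.30, 8.12, 8.74 and 9.40 in P90 mucosa, against 7.49, 7.83, 8.53 and 8.17 in P30 mucosa. Without array k its mean was 0.10.

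Cd8a encodes the alpha chain of the CD8 co-receptor, which binds MHC class I and is found as an alpha-alpha dimer on many intraepithelial lymphocytes. Its brightest probe read -0.39 (array a), 0.50 (b), 0.51 (e) and 1.25 (k), with a mean of 0.47 ± 0.67 (SD, n = 4; limma adjusted p = 0.670). Normalised log2 signals were 6.76, 7.49, 7.65 and 8.34 in P90 mucosa, against 7.15, 6.98, 7.14 and 7.09 in P30 mucosa. The P30 signals spanned 0.16 on the log2 scale and the P90 signals 1.58, and 3 of the 4 P90 signals lay above every P30 signal. Cd8b1, whose product pairs with the alpha chain on conventional CD8 T cells, was not analysed here, so the alpha-alpha and alpha-beta forms cannot be told apart.

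A second Cd8a probe was printed in 10 spots on each array, which shows the error within an array. It read -0.23 ± 0.14 over 9 spots of array a (SD, 1 spot being marked as an outlier), and over 10 spots each 0.43 ± 0.063 for b, 0.096 ± 0.049 for e and 0.39 ± 0.12 for k. None of the spots used lay above 0 on array a and all 10 did on each of the others. These SDs cover the error between spots of 1 hybridisation, not that between RNA pairs or hybridisations. Its mean over arrays was 0.17, and that of the dimmest Cd8a probe 0.081, with -0.21, 0.26, -0.13 and 0.40 on a, b, e and k. Both were well above background in P90 mucosa on 3 arrays, against 4 for the brightest probe, and the mean of the 3 probes was 0.24. The size for Cd8a therefore depends on the probe, with a mean log2 P90/P30 from 0.081 for the dimmest to 0.47 for the brightest.

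**Figure D2:**
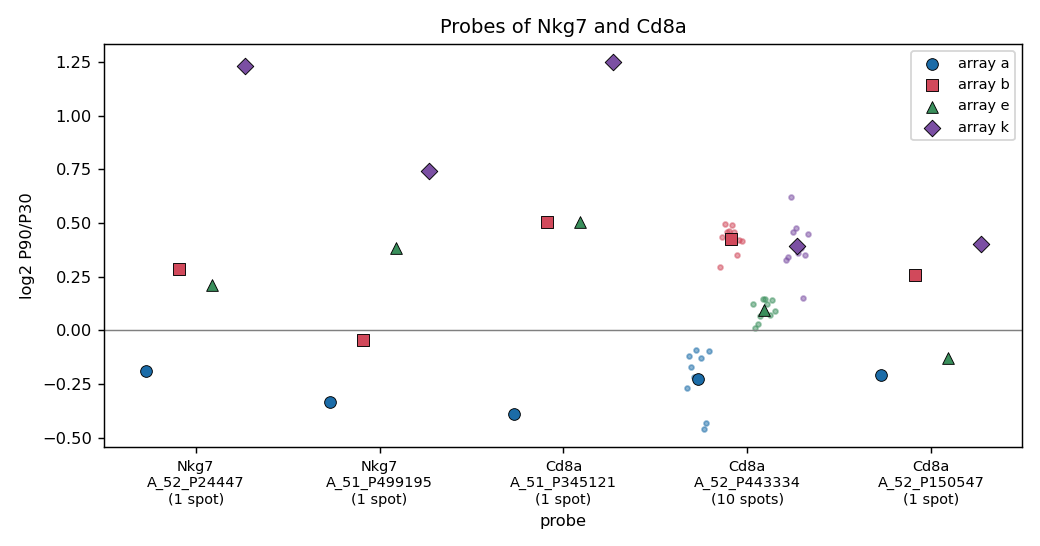
Log2 P90/P30 (y axis) of the 2 Nkg7 probes and 3 Cd8a probes (x axis) on each array (coloured symbols), with small points for the 10 single spots of the Cd8a probe that was printed repeatedly. Every probe lay below 0 on array a and above 0 on array k, and the repeated spots scattered by an SD of 0.049 to 0.14 within an array.

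The CD3 chains carry the signal of the T cell receptor into the cell. Cd3g (gamma chain) read -0.22 (array a), 0.73 (b), 0.17 (e) and 0.90 (k), with a mean of 0.39 ± 0.52 (SD, n = 4; limma adjusted p = 0.665). Cd3d (delta chain) read -0.12, 0.15, 0.051 and 0.89, with a mean of 0.24 ± 0.44 (limma adjusted p = 0.779, n = 4). Both were lowest on array a and highest on array k. Cd3e (epsilon chain) read 0.076, -0.34, 0.31 and 0.19, with a mean of 0.060 ± 0.28 (limma adjusted p = 0.953, n = 4), and was the 1 gene of the 9 that was lowest on array b.

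The normalised log2 signals of Cd3g were 7.15, 7.98, 7.82 and 8.62 in P90 mucosa, against 7.37, 7.25, 7.65 and 7.72 in P30 mucosa. Those of Cd3d were 7.25, 7.86, 8.57 and 9.41 in P90 mucosa, against 7.37, 7.71, 8.52 and 8.52 in P30 mucosa. Those of Cd3e were 7.25, 7.13, 7.26 and 7.48 in P90 mucosa, against 7.18, 7.47, 6.94 and 7.29 in P30 mucosa. Of the 4 P90 signals, 3 lay above every P30 signal for Cd3g, 2 for Cd3d and 1 for Cd3e. The signals of Cd3e spanned 0.34 on the log2 scale in P90 mucosa and 0.53 in P30 mucosa.

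Klrd1 encodes CD94, the chain that pairs with NKG2 receptors on NK cells and some CD8 T cells. Its log2 P90/P30 was -0.33 (array a), 0.91 (b), 0.062 (e) and 0.32 (k), with a mean of 0.24 ± 0.52 (SD, n = 4; limma adjusted p = 0.811). It was the 1 gene that was highest on array b, and without that array its mean was 0.017. Normalised log2 signals were 7.35, 8.20, 7.86 and 8.34 in P90 mucosa, against 7.68, 7.29, 7.80 and 8.02 in P30 mucosa.

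Over all 9 genes the 4 P90 signals overlapped the 4 P30 signals. Complete separation was uncommon among all genes too, with 0.865% of 20814 having every P90 signal above every P30 signal and 1.8% every one below. For 8 of the 9 genes the P90 signals spread more widely than the P30 signals, as did those of 57.8% of all genes, the exception being Cd3e. The spread of the P90 signals came with a P90 signal on array a that was the lowest of the 4 for 8 of the 9 genes, and on array a 55.6% of gene spots were well above background in the P90 channel, against 71.0% in the P30 channel. On array k these shares were 57.3% in the P90 channel and 69.6% in the P30 channel. The shares cover all gene spots and not the 9 genes alone. Before normalisation, the net P90 signal of each of the 9 genes was lower on array a than on array k. It was 54 against 79.5 for Cd3e and 43.5 against 437.5 for Gzma. Whether signal strength has a part in the values was not tested beyond the alternatives given at the end.

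**Figure D3:**
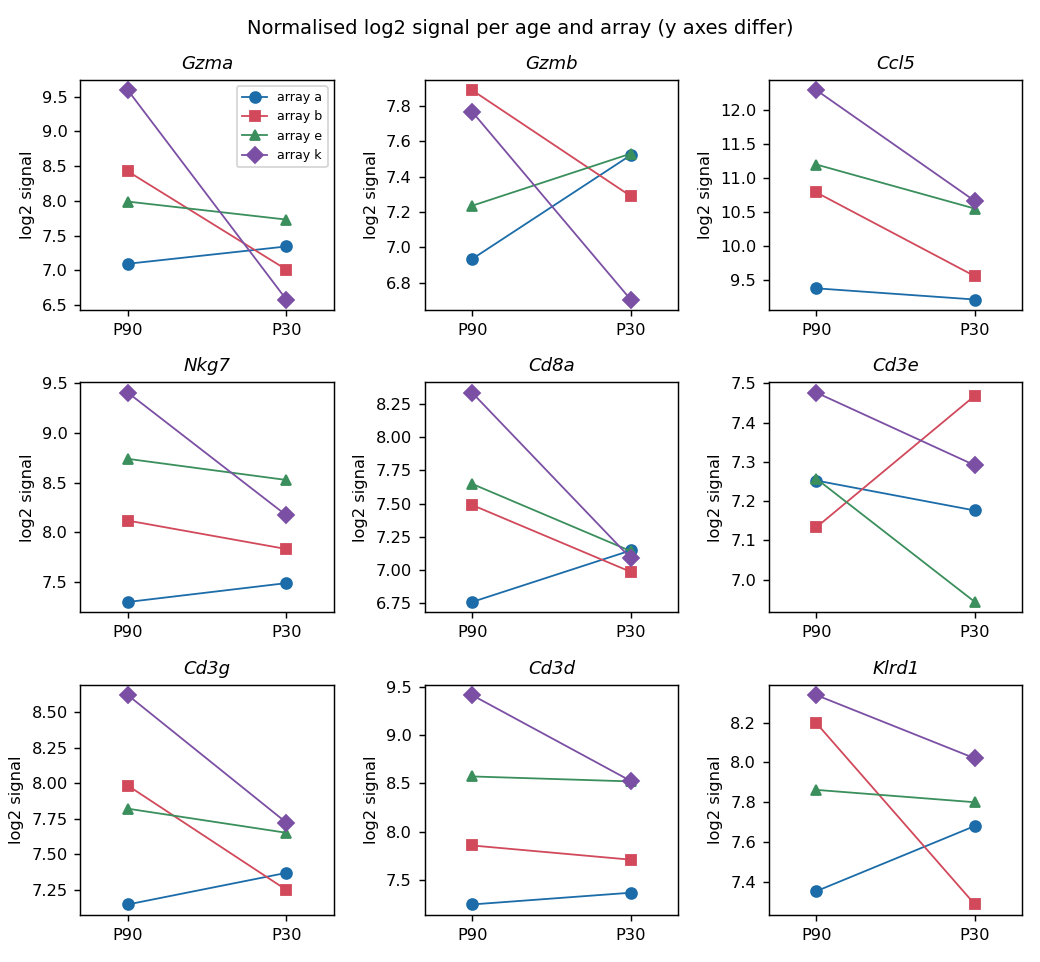
Normalised log2 signal (y axis, scaled per gene) of the 9 genes in P90 and P30 mucosa (x axis), with a line joining the 2 RNAs of each array. The P90 signal of array a is the lowest of the 4 for all genes but Cd3e, and every gene shows overlap between the ages.

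Other genes were taken from lists on lymphocytes, some of which also hold genes of other cells, such as epithelial partners. None of the genes on these lists passed the limma test after adjustment. Of 26 genes of T cell receptor signalling, 23 were tested, 19 had a mean above 0 (45.6% of all genes did) and 5 lay above 0 on all 4 arrays (6.15% of all genes), with a median of 0.051. At an unadjusted limma p below 0.05, which 7.9% of all genes reached, this list had 1 gene higher at P90, the granule list 1 lower, the transcription factor list 2 higher and 1 lower, the chemokine and homing list 1 lower, and the NK receptor and intraepithelial lists none. The brightest were Thy1 at -0.19 ± 0.77 (SD, n = 4), the kinase gene Lck at 0.031 ± 0.53, the adaptor gene Fyb at 0.0098 ± 0.82 and Cd6 at 0.18 ± 0.19. The array medians of this list ran from 0.070 to 0.16. They thus lacked the span of -0.22 to 1.06 that the 9 genes had, a contrast for which no test was run. Most tested genes of the list were dimmer than each of the 9 genes, and the part of brightness in this contrast was not tested. Over the arrays, Thy1 ran from -0.97 to 0.81, Lck from -0.44 to 0.65, Fyb from -0.58 to 1.20 and Cd6 from -0.033 to 0.42.

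Of 16 further genes of granules and killing, 12 were tested, 6 above and 6 below 0 on average, with a median of 0.0056. Prf1, the gene of perforin, was not well above background on any array at either age. The brightest were Lamp1 at -0.095 ± 0.25, the protease gene Ctsc at -0.56 ± 0.54, the granule release factor gene Unc13d at 0.16 ± 0.43 and the granule proteoglycan gene Srgn at -0.39 ± 1.47 (SD, n = 4 each). Of 22 genes of NK receptors and their adaptors, 8 were tested, 4 above and 4 below 0, with a median of 0.034. Ncr1 marks NK cells, while the product of Klrk1 is also carried by some T cells. Neither gene passed the filter: Klrk1 was not well above background on any array, and Ncr1 only in P90 mucosa on 1 array. Among the 9 measured genes the label of NK cells rests on genes that T cells share, Klrd1 among them, since some CD8 T cells carry its product. Of 4 further surface protein genes of NK cells, Klrb1c stood at 0.13 ± 0.34, Slamf7 at 0.073 ± 0.095, Klra7 at -0.21 ± 0.21 and Itga2 at -0.0047 ± 0.54 (SD, n = 4 each). Of 20 genes of intraepithelial lymphocytes and their epithelial partners, 10 were tested, 7 above 0, with a median of 0.070. Tmigd1 was at -0.78 ± 1.33, Btnl1, whose epithelial product acts on gamma delta T cells, at 0.31 ± 0.46, and the cytokine gene Il15 at 0.0024 ± 0.49 (SD, n = 4 each). Of 20 chemokine and homing genes, 17 were tested, 11 of them below 0, with a median of -0.046. The brightest were Ccl25 at -0.50 ± 1.33, Cxcl16 at -0.32 ± 0.54, Ccl28 at -0.015 ± 0.85 and Cxcl10 at -0.72 ± 0.43 (SD, n = 4 each).

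Of 22 transcription factor genes of lymphocytes, 19 were tested, 7 above and 12 below 0, with a median of -0.0075. Among the brightest were Id3 at 0.17 ± 0.51, Id2 at -0.0075 ± 0.47 and Zbtb7b at 0.17 ± 0.48 (SD, n = 4 each). Over these 6 lymphocyte lists together, 88 genes were tested, of which 9 lay above 0 on all 4 arrays (6.15% of all genes) and 5 below 0 on all 4 (7.98% of all genes). Named after their values were seen, the 9 included Zap70, Lat, Skap1, Txk, Itgal, Rab27a, Tbx21 and Cxcr3, and the 5 were Tnfsf10, Tcf7, Lef1, Ccr7 and Cxcl10. The order with array k highest and array a lowest held for 8 of the 88 genes (9.09%), against 5.56% of all genes.

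The array medians of the other lists, lymphocyte lists included, were ordered otherwise than those of the 9 genes. Of 17 genes found in all leukocytes 8 were above 0 and their median was -0.0039, with array medians of -0.11 (a), 0.59 (b), -0.086 (e) and -0.069 (k). Cd52 was at -0.14 ± 0.71, Coro1a at -0.082 ± 0.72, Cytip at -0.47 ± 1.07 and Ptprcap at 0.17 ± 0.21 (SD, n = 4 each). The 13 macrophage genes tested had a median of -0.26, with -0.80, 0.80, -0.44 and -0.62 on a, b, e and k. Array b was the highest of the 4 for the leukocyte, macrophage, endothelial (median -0.36, 10 genes) and fibroblast (median -1.71, 10 genes) lists. It was also the highest for the B and plasma cell list (0.31 on b). The same held for the 6 lymphocyte lists together, with -0.13, 0.20, -0.0072 and -0.033 on a, b, e and k. Medians were 0.086 for 15 B and plasma cell genes, -0.055 for 10 lymphoid follicle genes and -0.056 for 6 mast cell genes. Of 15 epithelial genes 9 were saturated in a channel on 3 or more arrays, and no median is given for them. On array k the leukocyte list and the 6 lymphocyte lists together (median -0.033) lay near 0 while the 9 genes had a median of 1.06. The 6 lists also hold genes of other cells, epithelial ones among them, so their median does not measure lymphocytes alone. The part of other cells in the values of the 9 genes was not tested.

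The brightest of the B and plasma cell list were Cd79b at 0.20 ± 0.87, Jchain at 0.49 ± 2.35, Pou2af1 at 0.41 ± 1.44 and Mzb1 at 0.59 ± 1.002 (SD, n = 4 each). Those of the lymphoid follicle list were Ltb at 0.11 ± 0.54, Ccl19 at -0.29 ± 0.70, Ccl21a at -0.72 ± 1.19 and Spib at 0.82 ± 0.54. The macrophage list was led by the complement gene C1qc at -0.71 ± 1.36, Cd14 at 0.19 ± 0.62, Aif1 at -0.64 ± 1.05 and the protease gene Ctss at -0.07 ± 0.83. None of these 12 genes passed the limma test after adjustment. Among mast cell genes the proteases Mcpt1, Mcpt4 and Cma1 stood at -0.57 ± 0.26, -0.58 ± 0.25 and -0.014 ± 1.31, and Fcer1a at -0.098 ± 0.20. The collagen genes Col1a1, Col1a2 and Col3a1 stood at -2.29 ± 2.44, -2.11 ± 2.53 and -2.45 ± 2.73, and Sparc at -1.59 ± 1.66. The endothelial genes Cdh5, Plvap, Ramp2 and Emcn stood at -0.49 ± 1.05, -0.58 ± 1.43, -0.63 ± 1.40 and -0.87 ± 1.21. Krt8, Krt18, Lgals4 and Cldn7 led the epithelial list and were saturated.

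**Figure D4:**
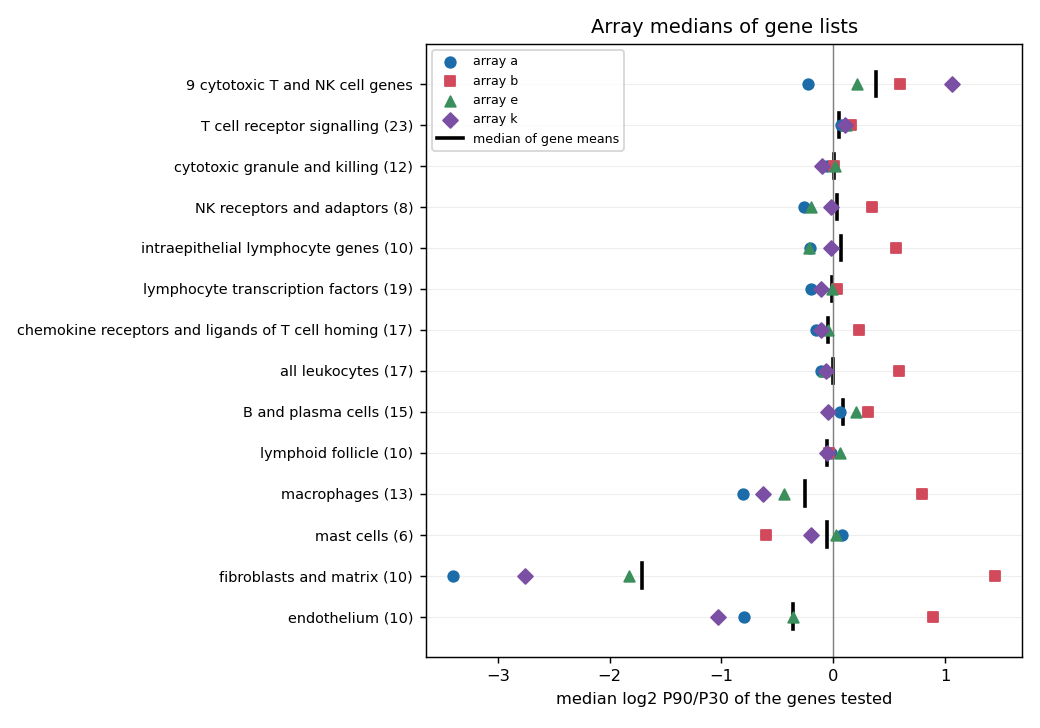
Median log2 P90/P30 (x axis) of the genes tested in each list but the epithelial one (rows, with the number of genes) on arrays a, b, e and k, with the median of the gene means as a black bar. The 9 genes span -0.22 on array a to 1.06 on array k. Most other lists, among them those of T cell receptor signalling, NK receptors, leukocytes, macrophages, fibroblasts and endothelium, are highest on array b.

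Among 13903 other genes with a symbol, likeness was measured as the Euclidean distance over the 4 arrays. Nearest to the mean profile of Cd3e, Cd3g, Cd3d and Cd8a (arrays a, b, e, k: -0.16, 0.26, 0.26, 0.80) were H6pd, Srp68, Smarcd2, Otud7a and Ppcs, at distances of 0.072 to 0.20. Nearest to that of Gzma, Gzmb and Nkg7 (-0.34, 0.77, 0.059 and 1.77) were Creb3l1, Pde2a, Rab27a, Fzd10 and Cpb2, at distances of 0.35 to 0.59. Rab27a, a small GTPase that docks secretory granules, was the 1 gene of the 10 that also stood in a lymphocyte list, with 0.15, 0.49, 0.16 and 1.72. With 4 arrays many unrelated profiles come close by number alone.

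**Figure D5:**
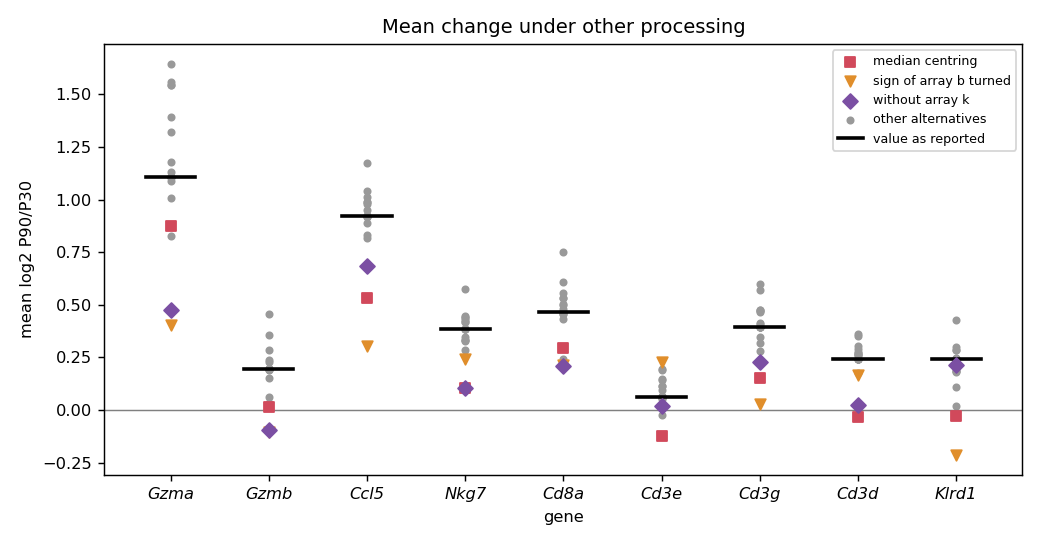
Mean log2 P90/P30 (y axis) of the 9 genes (x axis) as reported (black bar) and under 20 alternatives (points, 3 of them coloured). Gzma, Ccl5, Nkg7, Cd8a and Cd3g stayed above 0 under all 20, while Gzmb, Cd3e, Cd3d and Klrd1 lay below 0 under 1 or 2 of them.

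Across the 20 alternatives the mean of Gzma ran from 0.40 to 1.65 and that of Ccl5 from 0.30 to 1.17, both above 0 throughout. The lowest value of each came with the sign of array b turned. The adjusted limma p of Ccl5 ran from 0.182, with array weights, to 0.9998, and that of Gzma from 0.341 to 0.9998, and neither passed the threshold under any of them.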

How the data were processed

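Total RNA of colonic mucosa (0.4 ug per channel, per the labels' protocols) was measured on 4 two-colour arrays. Per the file headers, the authors deposited scanner output with linear intensity values, not yet normalised, given as the median over a spot and over the area around it. Per the file headers, their processed signals had background removed and dyes scaled, and from these a log10 ratio (Cy5 to Cy3) was deposited. Feature Extraction (Agilent) was at version 10.5.1.1 according to the headers, but 8.5.1.1 per the submitters' processing notes. The series' value table was deposited with no stated scale or direction. It was found to hold log2 P90/P30, within 0.01 of the deposited ratio for 80.0% to 87.0% of probes per array, with column medians of 0.21, -0.17, 0.049 and 0.17 on a, b, e and k, and its centring stays unknown. The deposited scanner files also mark each spot for saturation, for standing above background and as an outlier (other values, with no unit).

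Background was corrected with normexp (offset 50), followed by loess within each array (span 0.3), where control spots had no weight. All fits used limma 3.58.1 (R 4.3.3). Outlier spots were left out, and every ratio was turned to log2 P90/P30. Probes well above background at 1 age on at least 3 arrays were kept (27050 of 41174), and the brightest kept probe stood for its gene, which gave 20822 genes and transcripts. RefSeq accessions named 25097 probes, and 16077 stayed under the design's accession. The mean ratio was tested against 0 with limma, and p-values were adjusted over all genes by Benjamini-Hochberg (threshold 0.05). Normalised log2 signals per age come from Aquantile scaling between arrays and set no probe against another. The number of arrays limits the precision. The scripts were tested on simulated data. Members and lists were chosen with earlier results of these data known, and lists are described without a test. The 14 lists held 227 genes, 180 of them tested and 6 in more than 1 list. Named are all members, up to 4 of the brightest tested genes of each list, the 5 genes nearest to each mean profile, and genes marked as chosen after their values were seen or taken as defining markers; genes saturated on 3 or more arrays are not given values, and a few list genes are not reported here. The 20 alternatives change background, signal, normalization, filter, probe rule, arrays used, direction of array b, dye, weights and fit.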

Additional observations from a re-analysis of the deposited data

How the results depend on the processing

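The median of the 9 genes stayed above 0 under all 20 alternatives, from 0.11 to 0.58, and the number of genes with a mean above 0 ran from 6 to 9. Leaving out 1 array gave a median of 0.21 (without k) to 0.58 (without a). With median centring, which shifts the median of all genes to -0.21, Cd3e was at -0.13, Cd3d at -0.031 and Klrd1 at -0.030. Turning the sign of array b put Gzmb at -0.10 and Klrd1 at -0.21. Leaving out 1 array gave Gzmb from -0.094 (without k) to 0.46 (without a), and Cd3e from -0.025 (without e) to 0.19 (without b). The cause of these changes of sign was not tested, and none of the 9 genes passed the test in any alternative (adjusted p from 0.18 upwards). Among all genes, 1 passed with the smaller offset (16), and 2 with the processed signals, the deposited log ratio or the series' value table, none of them a member. Genes at an unadjusted p below 0.05 numbered 1645 as reported, 681 without array a, 4654 without b, 971 without e, 998 without k, 4973 with array b turned, 999 with a dye term and 4058 with array weights. Array e alone has the exchanged dyes, so the dye term rests on that array. Brightness limits the dimmer probes of Cd8a and Nkg7, which were well above background in P90 mucosa on 3 of 4 arrays. The probes standing for the 9 genes were well above background on all 4, but most were dim too. Before normalisation, their net P90 signals on array a ran from 29 (Cd8a) to 54.5 (Klrd1), apart from Ccl5 (301). The normexp offset was 50. For Gzma the net P30 signal on array k was 44, against 437.5 in P90 mucosa. For Klrd1 and Cd3e the net P30 signals on array k were 218 and 107.5, against 158 and 79.5 in P90 mucosa. Their ratios on array k thus lay above 0 only after normalisation. The rest of the 9 genes had a higher net signal in P90 than in P30 mucosa on that array. The part of low signal in these ratios was not tested beyond the alternatives. Every ratio is paired within its array, so no further block was fitted.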
